A study of Mus musculus with 54 samples.

Results

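The comparison described here is of M2-like mouse macrophages transfected with an siRNA pool targeting the transcription factor Myc against M2-like macrophages transfected with a negative siRNA pool. Its members are the libraries carrying these treatment labels, 3 per pool, which makes 6 of the 54 samples of the series. The cells were thioglycolate-elicited peritoneal exudate cells (cells drawn into the mouse peritoneum by an irritant and selected by adherence) from C57BL/6 mice aged 8 to 20 weeks. All groups compared here, except the M1-like mock, were polarized with 10 ng/ml IL-4 for 24 h, which gives the M2-like state. They were then transfected and harvested 48 h later. According to the methods, cells given siRNA were cultured without IL-4 after transfection. Mock cells received the transfection reagent without siRNA. The M1-like mock cells were polarized towards the pro-inflammatory state with LPS and IFN-γ instead. The shared statistical fit also held M0 cells, given no polarizing cytokine, with and without mock transfection, and untransfected M1-like and M2-like cells. These further groups were not compared here. The same experiment held M2-like cells given single pools against E2f1, Pparg or Stat6 and a combined pool against all the targets, each with 3 libraries. The methods name a different supplier for the Myc siRNA than for the E2f1, Pparg and Stat6 siRNA, and do not name one for the negative pool, so an effect of the Myc target and an effect of the siRNA source cannot be told apart. The methods speak of 3 biological replicates for the M1-like, M2-like and combined-pool cells, in the section on RNA extraction for qPCR, but neither they nor the labels say whether the replicates of the Myc and negative pools came from separate mice. The p-values therefore measure the spread between these samples, which may be technical.

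Myc is a basic helix-loop-helix leucine zipper protein that binds DNA as a dimer with MAX, most tightly at the E-box hexamer. The proteins of the MXD family, MNT and MGA also pair with MAX and compete for the same sites, where they act mainly as repressors. In dividing cells MYC is known for driving ribosome production, nucleotide and polyamine synthesis and the cell cycle, and in macrophages it is induced by IL-4 and takes part in alternative activation.

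The 6 libraries held between 15105531 and 19317922 reads counted in genes, and the 36 libraries of the experiment between 13421854 and 19704195. Values below are CPM, that is read counts scaled to a common library size after TMM normalization, and differences are log2 fold changes from edgeR's quasi-likelihood test with Benjamini-Hochberg adjustment over the 14172 genes tested. A gene is called when its adjusted p is under 0.05. The macrophage markers were abundant in every library, with a summed level of 12056 to 12204 CPM over 9 markers in the Myc pool, 12859 to 13951 CPM in the negative pool and 15220.0 to 16439 CPM in the mock. Of these 9 markers, 5 fell with the Myc pool, namely Mertk, Csf1r, Adgre1, Cd68 and Fcgr1, where 15.6% of all genes tested were lower. The falls were between 0.29 and 0.67 on the log2 scale. For Fcgr1, the largest fall, the Myc pool held 128, 151 and 176 CPM and the negative pool 213, 226 and 286 CPM. Its mock level was 97.6, 183 and 173 CPM, which overlapped the Myc pool. For Mertk, Csf1r, Adgre1 and Cd68, every mock library lay above every Myc pool library. B cell markers summed to between 36.8 and 105 CPM in the Myc pool and between 23.96 and 63.4 CPM in the negative pool, with adjusted p for single members from 0.381 to 0.611. Lck was called higher (1.37 ± 0.41) among T cell markers whose sum stayed between 0.801 and 5.59 CPM over the 6 libraries. Single markers also fell in lists of low summed level. The neutrophil markers summed to 4.096 to 6.56 CPM in the Myc pool and 5.203 to 7.15 CPM in the negative pool. Cxcr2 among them fell by 1.93 (adjusted p = 8.53e-04). It went from 1.75, 1.47 and 2.06 CPM to 0.789, 0.407 and 0.124 CPM, and the mock held 0.448, 0.280 and 0.209 CPM. S100a8, the other neutrophil marker tested, was not called (0.13, adjusted p = 0.725). Among dendritic cell markers, summing to 1.24 to 1.73 CPM and 2.23 to 3.34 CPM, Zbtb46 fell by 0.85 (adjusted p = 0.0273). In bulk libraries, fewer cells of a type and less RNA per cell cannot be told apart.

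Expression of the targeted gene was examined first. Myc (chr15:61985391-61990374, plus strand) measured 8.24, 8.898 and 5.83 CPM in the 3 Myc pool libraries and 19.6, 22.3 and 18.5 CPM in the negative pool libraries. The ranges did not overlap, and the third Myc library was the lowest of all. The Myc pool left 38.01% ± 8.01 (SD, n = 3) of the mean level of the negative pool (log2 fold change -1.38 ± 0.16 (SE), adjusted p = 6.83e-08). The mock libraries held 21.000, 23.6 and 20.4 CPM and lay with the negative pool. Cells given the combined pool, which also contains Myc siRNA, measured 8.58, 8.04 and 7.298 CPM, next to the Myc pool. In the M1-like mock, with no siRNA, Myc was at 3.37, 2.799 and 4.35 CPM, below the level that the knockdown reached.

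Of the other predicted regulators, Pparg fell, while E2f1 and Stat6 were not called. Pparg, a lipid-sensing nuclear receptor, fell from 123, 138 and 129.6 CPM to 91.6, 86.1 and 76.9 CPM with the Myc pool (log2 fold change -0.62 ± 0.08 (SE), adjusted p = 6.82e-07), which is 65.2% ± 5.72 (SD, n = 3) of the negative pool. For E2f1, a cell cycle transcription factor, the values were 21.8, 23.4 and 24.3 CPM against 20.9, 17.3 and 21.96 CPM (log2 fold change 0.20 ± 0.10 (SE), adjusted p = 0.142). Stat6, which transmits the IL-4 signal, measured 297, 313 and 304 CPM against 286, 298 and 297 CPM, a difference of 0.05 ± 0.09 on the log2 scale. Neither E2f1 nor Stat6 passed the test, and their libraries from both pools lay close together or overlapped.

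**Figure D1:**
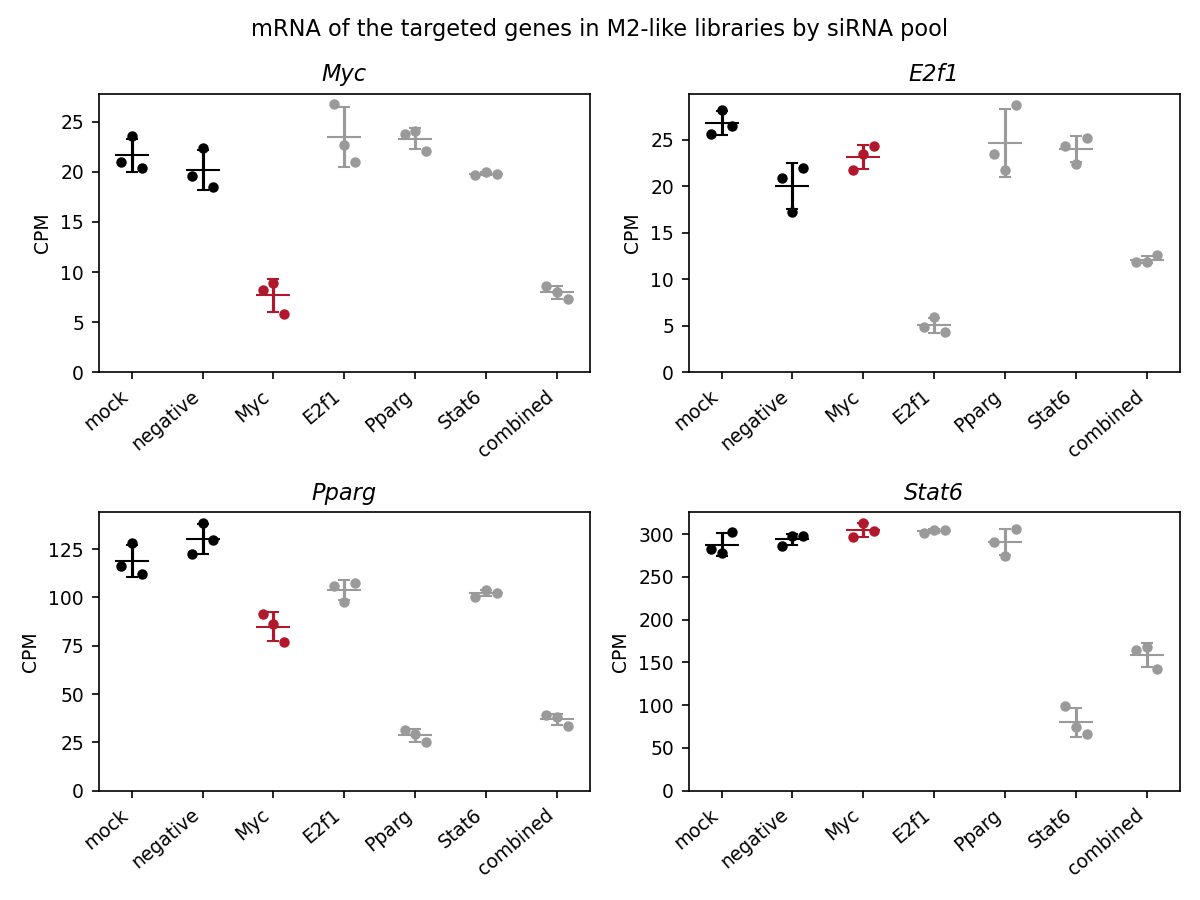
CPM of Myc, E2f1, Pparg and Stat6 in each M2-like library by siRNA pool, with points for single libraries, bars for the mean and whiskers for the SD of 3 libraries. Myc lies between 5.83 and 8.90 CPM in the Myc pool and above 18 CPM in the negative pool, and Pparg is also lower in the Myc pool than in the negative pool.

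The knockdown was accompanied by a broad change of the transcriptome. Against the negative pool, 1975 genes were higher (13.9% of the genes tested) and 2213 were lower (15.6%) in cells given the Myc pool. Most changes were small, and 213 of the higher and 324 of the lower genes reached a factor of 2. Against the mock, the numbers were 2808 higher (19.8%) and 2674 lower (18.9%). The negative pool itself differed from the mock in 945 higher (6.67%) and 713 lower (5.03%) genes. Of the 1975 genes higher against the negative pool, 1435 were also higher and 4 were lower against the mock. Of the 2213 lower genes, 1667 were also lower and 13 were higher. The Myc pool libraries are common to both of these comparisons, so the counts are not independent.

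**Figure D2:**
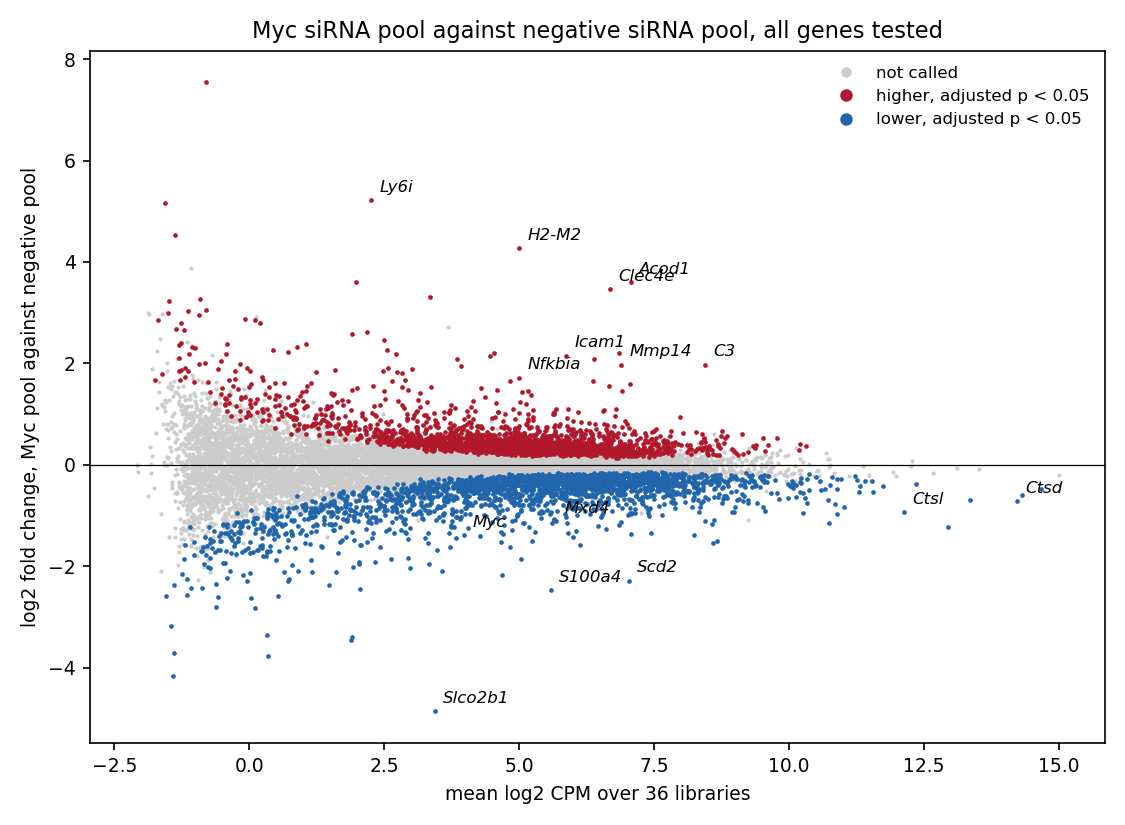
Log2 fold change of the Myc pool against the negative pool by mean log2 CPM over 36 libraries, 1 point per gene tested, with the 1975 higher genes in red and the 2213 lower genes in blue. Slco2b1 at -4.86 and Ly6i at 5.22 are the extremes among the labelled genes, while the abundant Ctsd and Ctsl lie at -0.72 and -0.94.

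Within the MAX network, 2 of 14 members were higher and 2 lower (14.3% each, beside 13.9% and 15.6% of all genes), so the network as a list lay near the share of all genes. Mxd4, which encodes a MAX-binding repressor, measured 25.5, 29.03 and 22.7 CPM in the Myc pool against 52.7, 54.96 and 60.2 CPM in the negative pool and 82.6, 83.99 and 90.5 CPM in the mock. Its groups were fully separated and the fall (log2 fold change -1.12 ± 0.08 (SE), adjusted p = 3.34e-11) was the only one in the network besides that of Myc itself. Zbtb17, the zinc finger partner through which MYC represses genes, rose from 30.7, 31.4 and 29.5 CPM to 39.3, 45.8 and 43.2 CPM (log2 fold change 0.49 ± 0.08 (SE), adjusted p = 2.64e-05). Mlx, a partner of the glucose-sensing MONDO proteins, rose by 0.19 ± 0.07 (adjusted p = 0.0402), a call that DESeq2 did not keep (adjusted p = 0.0526). Max, the shared partner, was at 135, 130.3 and 145 CPM and 139, 145 and 137 CPM (-0.04 ± 0.07, adjusted p = 0.7). The competitors Mnt (0.22 ± 0.09, adjusted p = 0.0516) and Mga (0.31 ± 0.12, adjusted p = 0.0528) lay just outside the threshold, and with the replicate numbers as a block they were called higher with adjusted p of 0.0362 and 0.0100. The remaining members Mxd1 (0.14), Mxi1 (-0.12), Mxd3 (0.65), Mlxip (-0.09), Mlxipl (-1.26), Mycl (-1.06) and Mycn (-1.27) were not called. Both Myc paralogs, Mycl and Mycn, were under 2 CPM in all 6 libraries.

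Polyamine synthesis, a textbook set of MYC targets, moved in both directions. Odc1, the rate-limiting ornithine decarboxylase, rose from 17.3, 19.01 and 16.4 CPM to 25.2, 24.4 and 29.5 CPM (log2 fold change 0.58 ± 0.13 (SE), adjusted p = 8.17e-04). Srm, spermidine synthase, rose by 0.53 ± 0.16 and Smox, spermine oxidase, by 0.36 ± 0.11. Sms, spermine synthase, fell from 17.5, 15.9 and 15.9 CPM to 11.4, 8.796 and 10.6 CPM (log2 fold change -0.68 ± 0.12 (SE), adjusted p = 9.79e-05). The antizymes Oaz1 and Oaz2, which restrain ornithine decarboxylase, fell by 0.37 and 0.52, and the antizyme inhibitor Azin1 fell by 0.42 on the log2 scale. Together 3 of 11 members rose (27.3%, beside 13.9% of all genes) and 4 fell (36.4%, beside 15.6%), with a list median of -0.28 beside 0.00 over all genes tested. Amd1 (0.01), Sat1 (-0.24), Paox (-0.35) and Azin2 (-0.28) did not pass.

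The E-box was searched for in the 250 bases before the start site of each RefSeq gene (build GRCm38.p6), as the letters CACGTG, which read the same on both strands. Of the 10137 tested genes with a promoter sequence, 9.89% held it. The share was 11.0% among genes lower and 10.01% among genes higher with the Myc pool, so both directions lay near the share of all genes. A windowed view of the promoters of Mxd4 (chr5:34187861-34187960, minus strand) and Sms (chrX:157492431-157492530, minus strand), both of which fell, is given from 5′ to 3′ on the strand of the gene as called members of the MAX and polyamine lists with an E-box outside annotated exons, and the capitals mark the E-box.
Mxd4: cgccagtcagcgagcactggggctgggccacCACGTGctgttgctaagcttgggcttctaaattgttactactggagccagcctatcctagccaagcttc
Sms: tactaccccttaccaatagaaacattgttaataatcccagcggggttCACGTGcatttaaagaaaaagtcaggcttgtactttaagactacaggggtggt
The hexamers end 213 and 190 bases before the start sites. A match describes the letters in these windows and does not show binding.

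Genes for making ribosomes and genes for the ribosomal proteins went opposite ways. Of 65 genes for ribosome biogenesis, 31 were higher with the Myc pool (47.7%, beside 13.9% of all genes), with a list median of 0.23. Bysl, needed for the small subunit, rose from 13.96, 14.9 and 14.1 CPM to 21.4, 25.3 and 24.6 CPM (log2 fold change 0.73 ± 0.11 (SE), adjusted p = 5.78e-06). Wdr74, a factor of the large subunit, rose from 23.4, 22.5 and 21.8 CPM to 35.97, 36.7 and 38.8 CPM (log2 fold change 0.72 ± 0.08 (SE), adjusted p = 3.45e-08). The ranges of both genes were separated between the pools. Further members were Nop10 (0.60), a part of the pseudouridylation complex, and the rRNA processing factors Rrp9 (0.57), Nle1 (0.54) and Rrp12 (0.53). The nucleolar proteins most often used as markers of this program, Ncl (-0.13), Npm1 (-0.25), Fbl (0.31), Nop56 (0.11) and Nop58 (-0.06), were not called. Against the mock, 38 of the 65 genes were higher and 1 was lower, and the negative pool itself differed from the mock in 3 higher and 4 lower members.

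Of 79 cytosolic ribosomal protein genes, 24 fell (30.4%, beside 15.6% of all genes) and 1 rose, with a median of -0.19. Rps21 measured 131, 130.4 and 127 CPM against 189, 219 and 196 CPM (log2 fold change -0.64 ± 0.12 (SE), adjusted p = 8.51e-05), without overlap. The values of Rps4x were 67.3, 62.3 and 65.3 CPM against 99.4, 104 and 90.998 CPM (log2 fold change -0.59 ± 0.10 (SE), adjusted p = 3.27e-05). Rplp1 fell by 0.71, Rpl39 by 0.74 and Rps24 by 0.59, while Rpl28 rose by 0.58 ± 0.20. Without the third Myc library, 15 of the 79 genes were lower. These genes have many processed pseudogenes, so single members are uncertain where reads could be shared. Of 19 translation factors, 5 were higher (26.3%, beside 13.9%), including the cap-binding protein Eif4e (0.38) and Eif6 (0.37), and 4 were lower (21.1%, beside 15.6%), including the elongation factor subunit Eef1b2 (-0.35).

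Nucleotide and carbon metabolism showed single enzymes rather than whole pathways moving. Among 24 genes of purine and pyrimidine synthesis, 6 fell (25%, beside 15.6% of all genes) and 3 rose (12.5%, beside 13.9%). Prps2, which makes the ribose phosphate donor, fell from 18.7, 17.9 and 20.02 CPM to 11.2, 9.86 and 11.6 CPM (log2 fold change -0.80 ± 0.14 (SE), adjusted p = 6.97e-05). Rrm1 (-0.55) and Rrm2 (-0.93), the ribonucleotide reductase subunits, fell as well, and Paics (-0.36), of purine synthesis, did too. Cad (0.26) and Dhodh (0.40), of pyrimidine synthesis, rose. In serine and one-carbon metabolism, Mthfd1l, a mitochondrial enzyme of folate metabolism, fell by 0.64.

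Among 22 genes of glycolysis, 8 fell (36.4%, beside 15.6% of all genes) and 3 rose (13.6%, beside 13.9%). Pfkl, the liver-type phosphofructokinase, rose from 75.3, 76.2 and 75.3 CPM to 111, 137 and 139 CPM (log2 fold change 0.77 ± 0.10 (SE), adjusted p = 1.25e-06), whereas the platelet-type Pfkp fell by 0.33. The aldolases Aldoc and Aldoa fell by 1.06 and 0.41, the enolase Eno2 by 0.79, and Pdk1, a pyruvate dehydrogenase kinase, by 0.68. Ldha, lactate dehydrogenase, fell by 0.24. In amino acid transport, Slc3a2, the heavy chain shared by several exchangers, rose by 0.61 ± 0.11, while Glud1 fell by 0.42 and Slc7a6 by 0.43 (2 of 14 higher, 14.3%, and 5 lower, 35.7%). Of 16 chaperonins and mitochondrial chaperones, 2 fell (12.5%, below the 15.6% of all genes), Hspa8 by 0.29 and Cct2 by 0.20.

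More cell cycle genes fell than rose with the Myc pool. Of 32 genes of replication and mitosis, 12 fell (37.5%, beside 15.6% of all genes) and 1, Bub1b, rose, with a median of -0.47. Top2a, the topoisomerase of dividing cells, measured 7.15, 8.49 and 5.96 CPM against 14.5, 14.7 and 14.9 CPM, without overlap (log2 fold change -1.02 ± 0.25 (SE), adjusted p = 0.00252). Ccna2 (-1.17), Ccnb2 (-1.04), Cdc20 (-1.19), Bub1 (-1.13) and Aurkb (-0.76) fell, as did the helicase subunits Mcm4, Mcm5, Mcm6 and Mcm7. Mki67, a common proliferation marker, was at 6.46, 7.58 and 4.84 CPM against 8.73, 8.004 and 9.89 CPM and was not called (adjusted p = 0.149). Of 18 regulators of G1, 5 fell (27.8%, beside 15.6% of all genes) and 1 rose (5.56%, beside 13.9%). Among those that fell, Ccnd1 (cyclin D1) did so by 0.83 and the inhibitors Cdkn1c, Cdkn2c and Cdkn2a by 0.75, 0.58 and 0.56. Cdkn1a, encoding the inhibitor p21 that MYC is known to repress, was the only one of 18 members that rose, from 166, 150.1 and 166 CPM to 246, 224 and 313 CPM (log2 fold change 0.70 ± 0.16 (SE), adjusted p = 0.00116). Its mock level was 86.2, 85.1 and 80.02 CPM, so it was higher in the negative pool than in the mock (0.94 ± 0.16) and higher again with the Myc pool.

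Of the 20 gene lists examined, the inflammatory genes had the highest median. Of 35 cytokine, chemokine and NF-kB target genes, 20 were higher (57.1%, beside 13.9% of all genes) and 1 was lower, with a median of 0.63. Acod1, which makes the antimicrobial metabolite itaconate, measured 224, 182 and 317 CPM in the Myc pool, 17.99, 17.3 and 23.96 CPM in the negative pool and 1.34, 3.08 and 3.14 CPM in the mock. It was 12.1-fold higher in the Myc pool than in the negative pool (log2 fold change 3.60 ± 0.36 (SE), adjusted p = 7.13e-09), and the 3 groups did not overlap. Icam1, the leukocyte adhesion molecule, rose from 23.9, 25.5 and 27.8 CPM to 89.2, 89.9 and 165 CPM (log2 fold change 2.15 ± 0.26 (SE), adjusted p = 1.52e-07). The cytokine Tnf rose from 15.2, 11.8 and 12.6 CPM to 34.1, 23.999 and 43.1 CPM (log2 fold change 1.35 ± 0.19 (SE), adjusted p = 1.89e-06).

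Regulators of NF-kB itself were among these genes. Nfkbia, the inhibitor that NF-kB induces to switch itself off, rose from 20.9, 18.9 and 20.1 CPM to 56.6, 53.5 and 87.5 CPM (log2 fold change 1.72 ± 0.21 (SE), adjusted p = 2.15e-07). In the mock it was at 22.1, 19.000 and 22.03 CPM, in the range of the negative pool (-0.08 ± 0.22). Nfkbie, a related inhibitor, rose from 5.66, 6.803 and 7.49 CPM to 22.1, 24.7 and 38.9 CPM (log2 fold change 2.09 ± 0.24 (SE), adjusted p = 9.19e-08). Relb (1.64), Nfkb2 (0.93) and Nfkb1 (0.39), subunits of NF-kB, and the deubiquitinase Tnfaip3 (0.57) rose too. The chemokines Ccl2 (1.43), Ccl7 (1.47), Ccl5 (1.65) and Ccl3 (0.51) and the costimulatory molecules Cd40 (1.13) and Cd80 (0.56) were higher. The third Myc library, which had the lowest Myc level, was the highest of the 3 for Acod1, Icam1, Tnf, Nfkbia and Nfkbie. The third negative library likewise had the lowest Myc level of its pool and the highest Acod1, Icam1 and Nfkbie, but not the highest Tnf or Nfkbia. A relation between the Myc level and these genes was not tested.

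Some hallmark inflammatory genes were counted at low levels. Il6 reached 0.493, 0.458 and 0.683 CPM against 0.0602, 0.267 and 0.172 CPM (log2 fold change 1.67 ± 0.59 (SE), adjusted p = 0.0313), and DESeq2 did not call it (adjusted p = 0.0640). Nos2, the nitric oxide synthase of M1-like cells, was at 0.7401, 1.02 and 1.61 CPM against 0.181, 0.667 and 0.286 CPM (log2 fold change 1.55 ± 0.55 (SE), adjusted p = 0.0309), a call lost for 4 of the 6 libraries left out in turn. Il1b measured 0.247, 0.102 and 0.434 CPM against 0.181, 0.334 and 0.4004 CPM and was not called. Il10, an anti-inflammatory cytokine, was the only member that fell, from 0.782, 0.934 and 1.66 CPM to 0.247, 0.763 and 0.434 CPM (log2 fold change -1.22 ± 0.46 (SE), adjusted p = 0.045), a call lost for 4 of the 6 libraries left out in turn. Its mock level was 0.384, 0.631 and 0.279 CPM, and the Myc pool was not called against the mock (0.16 ± 0.55). Against the mock, 28 of the 35 genes were higher with the Myc pool and 12 were higher with the negative pool.

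Upstream of the start site, an NF-kB binding motif, GGG and TTTCC with any 2 bases between them, searched on both strands, was found in 1.75% of tested genes and in 8 of the 23 inflammatory genes with a promoter sequence (34.8%). The list was assembled from genes known to respond to NF-kB, so this share describes the list. Among all genes higher with the Myc pool it was 1.36%, and 3.38% among those at least 2-fold higher. Nfkbia (chr12:55492648-55492747, minus strand), Il6 (chr5:30013014-30013113, plus strand) and Tnfaip3 (chr10:19015411-19015510, minus strand) are shown, each with the motif or its reverse complement in capitals, as called members with the motif outside annotated exons.
Nfkbia: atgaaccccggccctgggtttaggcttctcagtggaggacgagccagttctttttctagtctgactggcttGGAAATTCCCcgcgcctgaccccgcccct
Il6: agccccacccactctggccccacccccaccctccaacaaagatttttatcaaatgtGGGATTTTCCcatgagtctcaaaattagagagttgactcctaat
Tnfaip3: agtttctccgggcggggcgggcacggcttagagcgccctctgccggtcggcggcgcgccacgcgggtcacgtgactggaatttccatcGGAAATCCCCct
The motifs end 19, 34 and 2 bases before the start sites.

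The interferon response differed mainly between the siRNA-treated cells and the mock. Of 47 interferon-stimulated genes, 46 were higher in the negative pool than in the mock (median 1.18) and 47 were higher in the Myc pool than in the mock (median 1.49). Between the Myc pool and the negative pool, 9 were called higher (19.1%, beside 13.9% of all genes), with a median of 0.29. With the replicate numbers as a block the number was 16, and without the third Myc library it was 4. Cxcl10, a chemokine for T cells, measured 0.9604, 2.73 and 2.44 CPM in the mock, 4.33, 4.47 and 6.01 CPM in the negative pool and 12.7, 12.6 and 27.2 CPM in the Myc pool (log2 fold change 1.81 ± 0.47 (SE), adjusted p = 0.00363). Usp18, which dampens interferon signalling, rose from 132, 128 and 134 CPM to 219, 200.3 and 261 CPM (log2 fold change 0.79 ± 0.16 (SE), adjusted p = 4.70e-04), after a mock level of 29.1, 45.2 and 45.03 CPM. Stat2 (0.63), Oasl1 (0.67), Iigp1 (0.95), Isg20 (0.54) and Ifi35 (0.42) were higher as well, while Irf7, the regulator of the response, was not called (0.33 ± 0.30). Ifit3b (0.90) has a near-identical neighbour and is uncertain. Irf9 (0.23) completed the 9. The interferon response motif, GAAA repeated after any 2 bases and searched on both strands, was present before the start site of 3.47% of tested genes and of 21 of 35 genes of this list (60.0%). The list was assembled from genes known to respond to interferon, so this share describes the list. Among all genes higher with the Myc pool it was 3.12%. The promoters of Stat2 (chr10:128270248-128270347, plus strand) and Cxcl10 (chr5:92349040-92349139, minus strand) are shown as called members with the motif in capitals.
Stat2: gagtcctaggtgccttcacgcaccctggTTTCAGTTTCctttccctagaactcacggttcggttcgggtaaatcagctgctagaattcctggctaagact
Cxcl10: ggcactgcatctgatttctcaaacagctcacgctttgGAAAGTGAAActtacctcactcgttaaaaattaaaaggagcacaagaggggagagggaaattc

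Genes of the IL-4 program were lower after Myc knockdown. Of 27 genes of alternative activation, 16 fell (59.3%, beside 15.6% of all genes), with a median of -0.60, and the other 11 were not called. Slco2b1 (chr7:99657804-99711340), an organic anion transporter, measured 0.296, 0.6102 and 0.496 CPM in the Myc pool, 11.4, 15.5 and 14.4 CPM in the negative pool and 26.1, 32.9 and 24.2 CPM in the mock. Its fall was the largest of the genes named here (log2 fold change -4.86 ± 0.33 (SE), adjusted p = 1.76e-11). The lectin Mgl2 fell from 13.3, 11.5 and 9.49 CPM to 3.21, 4.58 and 1.49 CPM (log2 fold change -1.86 ± 0.26 (SE), adjusted p = 2.39e-06), and its neighbour Clec10a by 1.68. Chil3 (Ym1), a chitinase-like protein that marks M2-like cells, fell from 1011, 864 and 765 CPM to 587, 516 and 387 CPM (log2 fold change -0.82 ± 0.16 (SE), adjusted p = 1.91e-04), and the pools were separated for Mgl2, Clec10a and Chil3.

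Other classical markers fell or were not called. Retnla (Fizz1) varied strongly between replicates, with 76.3, 141 and 48.8 CPM in the Myc pool and 180.5, 368 and 139 CPM in the negative pool (log2 fold change -1.37 ± 0.47 (SE), adjusted p = 0.0254), and DESeq2 did not call it (adjusted p = 0.0640). Its second replicate was the highest in each of these pools, and the ranges overlapped. Each Myc library lay below the negative library of the same number. With the replicate numbers as a block, edgeR gave Retnla an adjusted p of 5.97e-09. Mrc1, the mannose receptor, fell by 0.37 (adjusted p = 0.0421, a call lost for 5 of the 6 libraries left out in turn), Irf4, a transcription factor induced by IL-4, by 0.60 and Pdcd1lg2, encoding PD-L2, by 1.63. Arg1, the arginase of M2-like cells, was at 30.98, 96.6 and 28.5 CPM against 34.8, 65.4 and 32.6 CPM and was not called (0.24 ± 0.65). Against the mock, 14 of the 27 genes were lower and 2 were higher with the Myc pool.

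Sterol and fatty acid synthesis had the largest share of called genes among the 20 lists. Of its 30 members, 24 fell (80.0%, beside 15.6% of all genes), with a median of -0.86, and 29 showed no overlap between the 3 and 3 libraries, beside 47.8% of all genes tested. Scd2, a stearoyl-CoA desaturase, measured 333, 341 and 425 CPM in the mock, 142, 118 and 238 CPM in the negative pool and 36.95, 26.9 and 38.5 CPM in the Myc pool (log2 fold change -2.29 ± 0.24 (SE), adjusted p = 1.47e-08). Scd1 fell from 40.7, 24.9 and 56.9 CPM to 10.3, 9.56 and 7.199 CPM (log2 fold change -2.17 ± 0.22 (SE), adjusted p = 9.12e-09). The libraries of the Myc and negative pools did not overlap for either desaturase.

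The fall reached from early steps of both pathways to regulators. Hmgcs1 (-0.97), at the entry of the mevalonate pathway, Idi1 (-1.40), Fdps (-1.08), Sqle (-1.07) and Cyp51 (-1.14) were lower. So were Fasn (-0.83) and Acaca (-0.68), which make palmitate, and Fads2 (-1.74), Fads1 (-1.08) and Elovl6 (-1.59), which desaturate and elongate fatty acids. Insig1, a sensor that holds SREBP in the endoplasmic reticulum and is itself an SREBP target, fell from 100.1, 96.2 and 109 CPM to 50.5, 52.4 and 51.5 CPM (log2 fold change -0.98 ± 0.09 (SE), adjusted p = 7.97e-10). Srebf2, the sterol regulator, fell by 0.38, whereas Srebf1 (-0.18 ± 0.09, adjusted p = 0.126) was not called. The negative pool had 22 of the 30 genes below the mock, with a median of -0.48, and the Myc pool had 29 below the mock, with a median of -1.39.

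**Figure D3:**
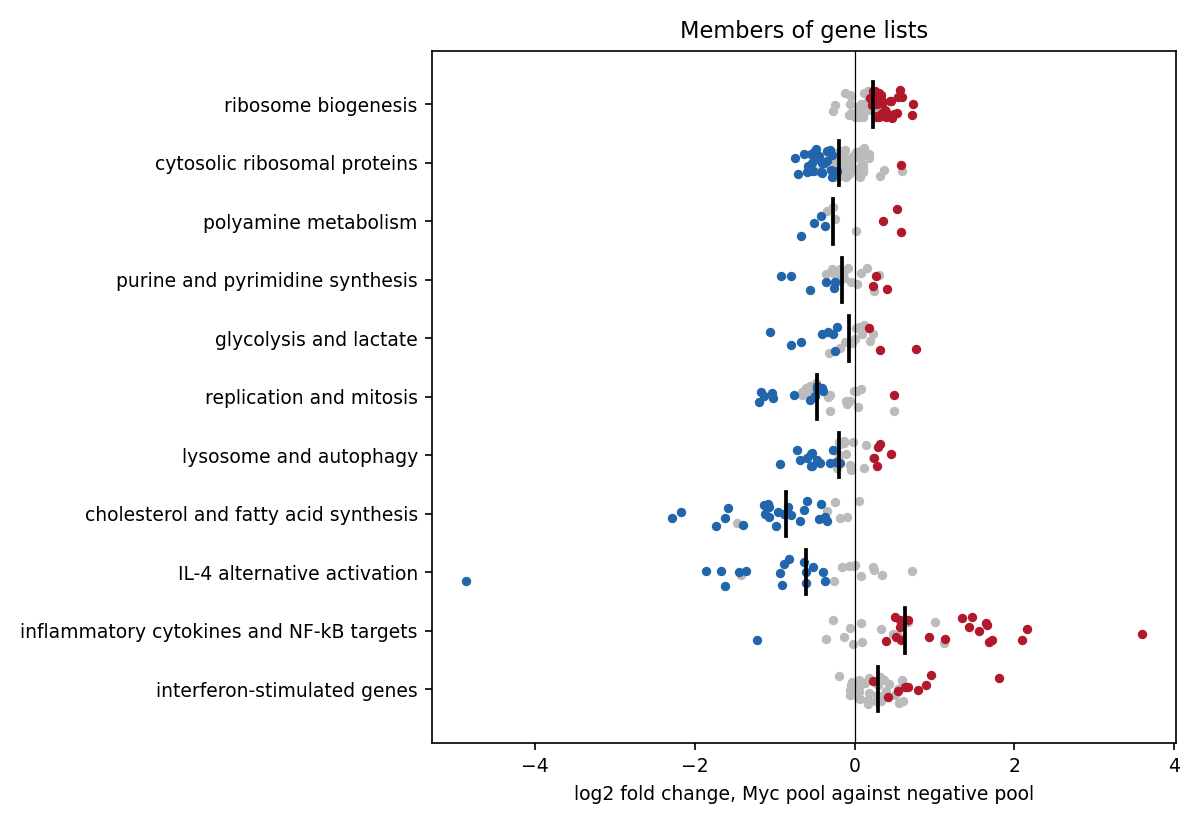
Log2 fold changes of the members of 11 gene lists, Myc pool against negative pool, with called higher genes in red, called lower genes in blue, genes not called in grey and a bar at each list's median. Medians range from -0.86 for cholesterol and fatty acid synthesis to 0.63 for inflammatory cytokines and NF-kB targets.

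Of 33 lysosome and autophagy genes, 14 fell (42.4%, beside 15.6% of all genes) and 5 rose (15.2%, beside 13.9%), with a median of -0.20. Ctsl, a cathepsin, measured 3867, 3697 and 3273 CPM against 6868, 6648 and 7248 CPM (log2 fold change -0.94 ± 0.11 (SE), adjusted p = 1.27e-07), and Ctsd 15141, 14969 and 13211 CPM against 25254, 22851 and 23471 CPM (log2 fold change -0.72 ± 0.08 (SE), adjusted p = 4.06e-08). The groups of both were far apart. Ctss (-0.69), Ctsb (-0.60), Lamp1 (-0.53) and Lamp2 (-0.55) fell too, while Neu1 (0.45) rose. Of the 10 proton pump subunits in the list, Atp6v1e1, Atp6v1d and Atp6v0c rose, Atp6v0d2 (-0.55) and Atp6v1a (-0.18) fell and 5 were not called. Of 13 mitochondrially encoded genes, mt-Nd6 and mt-Nd1 were called lower by 0.41 and 0.36 (15.4%, beside 15.6% of all genes), with a list median of -0.28. Against the mock, 12 of the 13 were lower with the Myc pool and 10 with the negative pool. Among 13 proteins of the short RNA pathway, 2 rose, Drosha (0.34) and Tarbp2 (0.37), and 2 fell, Ago4 (-0.29) and Ago1 (-0.18), and 15.4% in each direction is near the share of all genes.

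**Figure D4:**
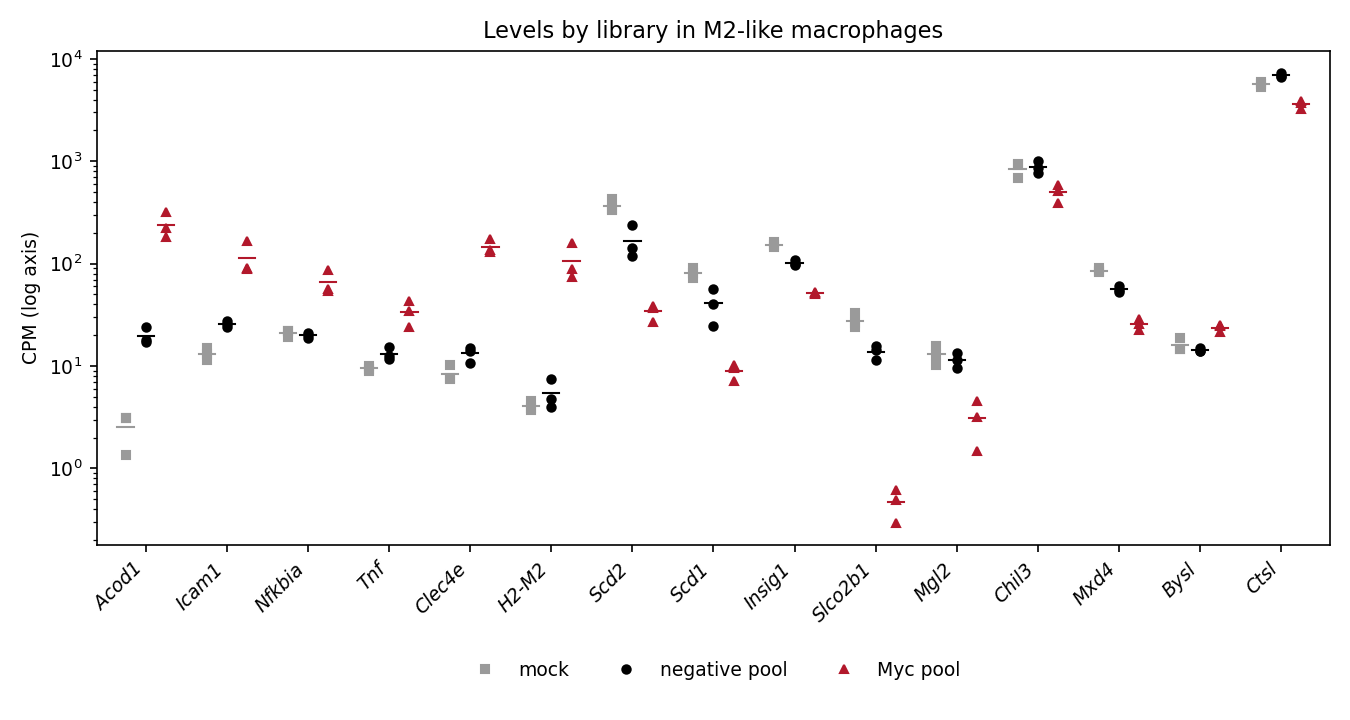
CPM on a log axis of 15 genes in the M2-like mock (grey squares), negative pool (black circles) and Myc pool (red triangles), with 1 point per library and a line at each mean. The Myc pool libraries of Acod1 lie between 182 and 317 CPM against 17.3 to 23.96 CPM in the negative pool, and those of Slco2b1 between 0.296 and 0.610 CPM against 11.4 to 15.5 CPM.

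Several of the largest changes were outside the lists. H2-M2, a non-classical MHC class I gene (chr17:37480851-37483552), measured 88.5, 74.5 and 158 CPM in the Myc pool against 4.81, 4.002 and 7.55 CPM in the negative pool and 4.55, 3.93 and 3.69 CPM in the mock (log2 fold change 4.27 ± 0.36 (SE), adjusted p = 1.62e-10). Clec4e, encoding the glycolipid receptor Mincle, rose from 10.8, 14.1 and 14.9 CPM to 129, 137 and 175 CPM (log2 fold change 3.47 ± 0.27 (SE), adjusted p = 6.60e-11). Hcar2, the receptor for niacin and ketone bodies, rose from 0.782, 0.8004 and 0.458 CPM to 5.67, 6.46 and 8.32 CPM (log2 fold change 3.32 ± 0.43 (SE), adjusted p = 5.71e-07). None of these genes had overlapping groups.

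Other genes among the largest rises have known roles outside the lists. C3, the central complement component, rose from 119, 225 and 177 CPM to 559, 771 and 716 CPM (log2 fold change 1.98 ± 0.31 (SE), adjusted p = 1.27e-05), and Cfb, complement factor B, by 2.46 ± 0.42. Mmp14, a membrane-bound matrix metalloprotease, rose from 54.3, 63.2 and 76.9 CPM to 208, 232 and 324 CPM (log2 fold change 1.97 ± 0.21 (SE), adjusted p = 1.44e-08). Inhba, which encodes the activin A subunit, rose by 2.14 ± 0.23, Mcemp1 by 2.27 ± 0.30 and Hp, haptoglobin, by 2.18 ± 0.63. Ly6i had 0.0602, 0.0667 and 0.4004 CPM in the negative pool and 3.26, 8.85 and 9.37 CPM in the Myc pool (5.22 ± 0.62). H2-Q6 and H2-Q7 rose by 2.21 ± 0.18 and 2.09 ± 0.16, and both had already risen in the negative pool over the mock (3.32 and 3.06). Ly6i, H2-Q6 and H2-Q7 belong to families of near-identical genes and are uncertain.

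Among the falls, S100a4, a calcium-binding protein of motile cells, went from 48.2, 45.2 and 52.1 CPM to 9.57, 8.44 and 8.13 CPM (log2 fold change -2.47 ± 0.25 (SE), adjusted p = 8.14e-09). Ccr2, the receptor for CCL2 and a marker of monocyte-derived cells, went from 6.14, 5.74 and 5.32 CPM to 1.13, 0.915 and 1.06 CPM (log2 fold change -2.46 ± 0.35 (SE), adjusted p = 2.85e-06), while its ligand Ccl2 rose. Nes, the intermediate filament nestin, fell from 17.99, 21.01 and 17.5 CPM to 3.898, 4.88 and 4.34 CPM (log2 fold change -2.10 ± 0.16 (SE), adjusted p = 5.08e-11). Trf, transferrin, fell by 1.85, the neutral sphingomyelinase Smpd3 by 2.03, Gamt of creatine synthesis by 1.85, the angiotensin-converting enzyme Ace by 1.96, Ramp1, a subunit of the CGRP receptor, by 1.96, and the glycosyltransferase B3gnt7 by 1.93.

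Upk3b, a mesothelial gene, fell from 6.86, 8.27 and 10.6 CPM to 1.83, 2.19 and 2.85 CPM (log2 fold change -1.92 ± 0.46 (SE), adjusted p = 0.00201). Of 7 tested mesothelial and fibroblast markers, 3 fell, namely Upk3b, Krt19 and Wt1, where 15.6% of all genes tested were lower. Col1a1, Col1a2, Col3a1 and Dcn were not called. Krt19 was counted at low levels, with 0.197, 0.203 and 0.0621 CPM in the Myc pool and 0.481, 0.667 and 1.37 CPM in the negative pool. The summed level of the list was 218 to 307 CPM in the Myc pool, 261 to 377 CPM in the negative pool and 162 to 266 CPM in the mock. The part of these cells in the result was not tested.

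To see which changes were shared with other siRNA pools, the Myc pool was compared directly with the E2f1, Pparg and Stat6 pools. In all 3 comparisons, 746 genes were higher (5.26% of the genes tested) and 1003 were lower (7.08%) with the Myc pool. The 3 comparisons share the Myc libraries. Without the third Myc library the numbers were 433 and 667. Against the negative pool, these other pools had fewer called genes, with 129 for E2f1 (0.910%), 814 for Pparg (5.74%) and 214 for Stat6 (1.51%).

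The genes that stood furthest from every other single pool were largely those named above. The smallest of the 3 differences was 4.20 for Ly6i, 2.52 for H2-M2, 1.95 for Clec4e, 1.91 for Hcar2, 1.82 for Acod1, 1.801 for Hp, 1.71 for Icam1 and 1.51 for Nfkbie. Card14, a scaffold protein upstream of NF-kB, and Cdc42ep2, an effector of the GTPase CDC42, completed the higher group with 1.57 and 1.39. Among the lower genes, the smallest difference was -2.85 for Slco2b1, -2.23 for S100a4, -1.94 for Gamt, -1.86 for Ccr2, -1.62 for Smpd3, -1.57 for Nes, -1.38 for Mgl2 and -1.36 for Myc itself. Cav2, a caveolin, measured 33.3, 28.7 and 24.5 CPM in the Myc pool against 91.2, 83.6 and 84.6 CPM in the negative pool (log2 fold change -1.58 ± 0.10 (SE), adjusted p = 2.96e-12), and its smallest difference was -1.35. F13a1, the catalytic subunit of coagulation factor XIII, had -1.31. Acod1 was also raised by the Pparg pool against the negative pool (1.78 ± 0.36, adjusted p = 0.0016), to 56.3, 53.5 and 94.5 CPM, which was below every Myc pool library. By list, 15 of 30 lipid synthesis genes, 8 of 27 IL-4 genes and 14 of 79 ribosomal protein genes were lower, and 12 of 35 inflammatory and 7 of 65 ribosome biogenesis genes were higher, in all 3 comparisons.

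**Figure D5:**
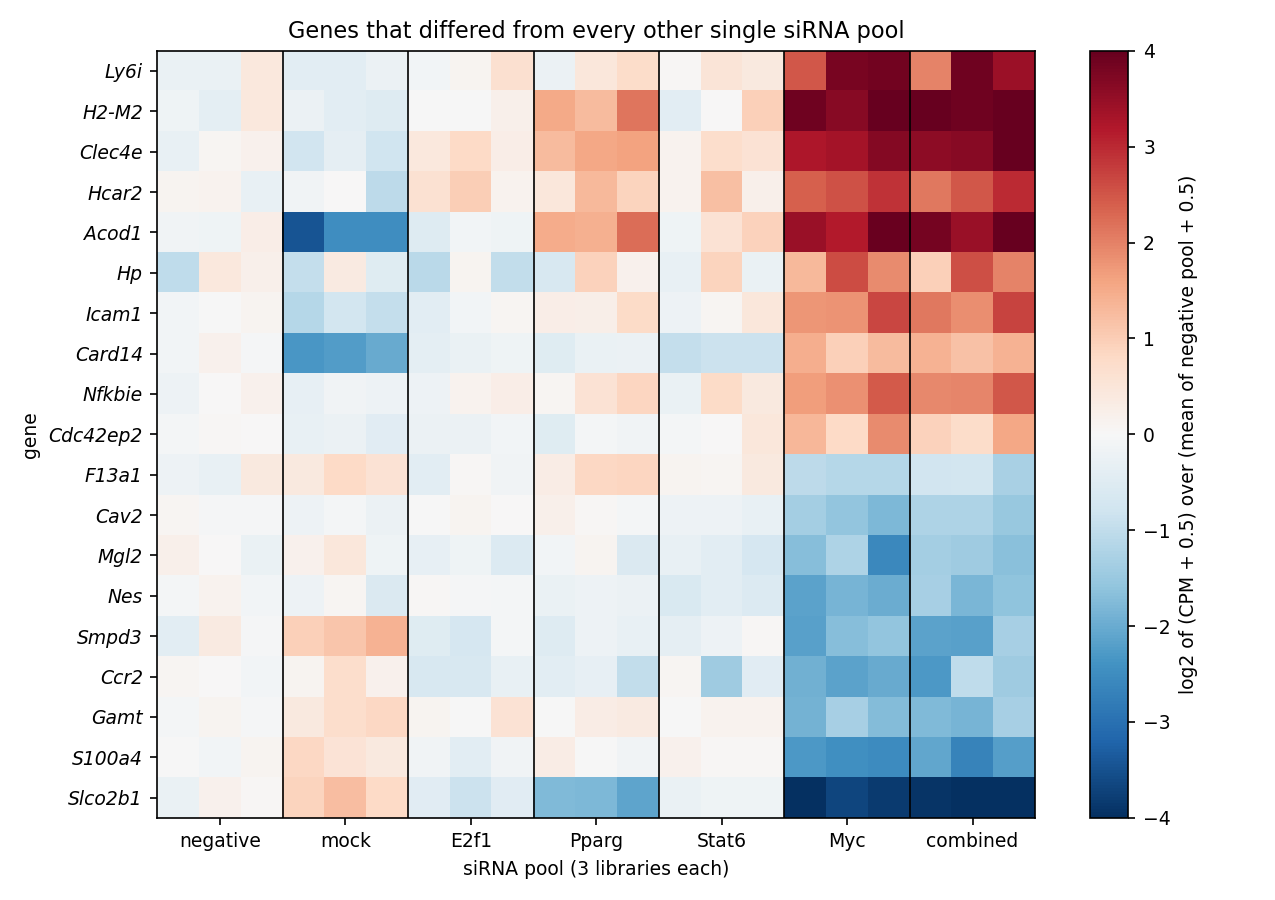
Log2 ratio of CPM + 0.5 to the mean of the negative pool + 0.5 in every library of 7 M2-like groups, for 19 genes that differed between the Myc pool and each other single pool, with colours limited to 4 in both directions. Log2 fold changes from edgeR against the negative pool are a measure other than the plotted ratio. For Slco2b1 they are -4.86 in the Myc pool and -5.41 in the combined pool, and for H2-M2 they are 4.27 and 4.50.

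Few genes separated the combined pool from the Myc pool. Against the negative pool, 3750 genes were called for the combined pool (26.5%). A direct comparison of the Myc pool with the combined pool, added after the values had been seen, called 7 of 14172 genes (0.0494%), all higher in the Myc pool, with 427 genes at an unadjusted p under 0.05 and 10 genes called by DESeq2. The 3 other targets led these, Pparg by 1.20 ± 0.08, Stat6 by 0.94 ± 0.09 and E2f1 by 0.93 ± 0.11 on the log2 scale, and only the combined pool contains siRNA against them. The others were Sort1, Angptl4, Snx27 and Gm13910. E2f1, Stat6 and Pparg stood at 60.4%, 53.9% and 28.3% of the negative pool mean in the combined pool. In their own single pools they stood at 25.2%, 27.3% and 21.9%. Pparg was already at 65.2% in the Myc pool. The direct comparison therefore covers only a partial loss of E2f1 and Stat6. The median SE of a difference in this comparison was 0.12, as for the Myc pool against the negative pool (0.12), and a gene that was not called is not shown to be equal. Acod1 differed by -0.34 ± 0.31, Scd2 by -0.01 ± 0.24, Slco2b1 by 0.54 ± 0.63 and Mxd4 by -0.03 ± 0.09 between the Myc and the combined pool.

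The study asked whether knocking down the predicted regulators moves M2-like cells towards the M1-like state. Between the M1-like and the M2-like mock, which share no library with the present comparison, 4373 genes were higher (30.9%) and 4224 lower (29.8%) in M1-like cells. Of the 1975 genes raised by the Myc pool, 1143 (57.9%) were higher and 198 (10.03%) lower in M1-like cells, and the 1143 genes are 26.1% of those higher in M1-like cells. Of the 2213 genes lowered, 1407 (63.6%) were lower and 246 (11.1%) higher in M1-like cells, and the 1407 genes are 33.3% of those lower in M1-like cells. Among genes changed at least 2-fold, 136 of 213 raised genes (63.8%) and 269 of 324 lowered genes (83.0%) had the M1-like direction.

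Individual genes are given side by side, and the differences between these changes were not tested. Acod1 differed by 7.47 between M1-like and M2-like mock on the log2 scale and by 3.60 between the pools, and Scd2 by -3.61 and -2.29. Slco2b1 had no counts in any of the 3 M1-like mock libraries, and Retnla was at 0, 0.295 and 0.05804 CPM there, far below the levels that remained with the Myc pool. For Nfkbia the values were 0.40 between the mocks (adjusted p = 0.104) and 1.72 between the pools. Hp rose with the Myc pool (2.18) and had a difference of -1.33 between the M1-like and the M2-like mock, which was not called (adjusted p = 0.184). Of the 22 genes of glycolysis, 16 were higher and 3 lower in the M1-like mock, beside 30.9% and 29.8% of all genes. Their median there was 0.76. With the Myc pool 3 of them were higher (13.6%, beside 13.9%) and 8 lower (36.4%, beside 15.6%), with a median of -0.07. The study also assembled a signature from genes of central metabolism, chosen for differing between M1-like and M2-like cells, and genes described for these states in the literature. Of its 110 tested genes, 20 rose (18.2%, beside 13.9% of all genes) and 28 fell (25.5%, beside 15.6%) with the Myc pool. Of the 20, 14 were higher and 2 lower in M1-like cells, and of the 28, 19 were lower and 4 higher. Since the study chose most of these genes by their difference between the states, they are no independent evidence of the direction.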

How the data were processed

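RNA from adherent thioglycolate-elicited peritoneal cells was sequenced by the authors as paired reads of 150 bases. According to the submitters' processing notes, reads were trimmed with Trimmomatic, mapped to mm10 with TopHat2 and counted with featureCounts, and versions, strand setting and treatment of multiply mapping reads are not given in the sources used here. The deposited values are raw read counts per Ensembl gene (39179 identifiers, 37607 matched to a symbol of GENCODE M21), with 1 file per library. Nothing was rounded or rescaled before use.

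Counts of 36 libraries (12 groups of 3) were fitted in 1 model with edgeR 4.0.16 in R 4.3.3 after filterByExpr (minimum count 10, minimum total 15) and TMM scaling, which assumes that most genes do not change. The quasi-likelihood test was used, with Benjamini-Hochberg adjustment over 14172 genes, a threshold of 0.05 and SE taken from the fold change and F statistic. DESeq2 1.42.0 was an alternative. The procedure was tested on simulated data. The members, the 20 gene lists and the named genes were chosen with earlier results of these data known. Named were the targeted genes, the 15 largest rises and 15 largest falls with mean log2 CPM of at least 2, no overlap between the pools and no clone-type symbol, up to 6 called members per list, all members of the MAX and polyamine lists, and 10 genes per direction from the direct comparisons with other single pools; other list members and markers named beside them were picked after their values were seen.

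Replicate numbers come from the sample titles. Same-numbered Myc and negative libraries deviated together from their group means (r = 0.27, 0.19 and 0.20 over 10223 genes). Between the Myc pool and the mock, same-numbered libraries gave r = 0.40, -0.0061 and 0.28, so the second replicate showed no such pairing there. The numbers were taken to pair the samples only in an alternative fit with them as a block. The main fit did not use them. Replicates of a group differed by more than sampling noise (chi-square per gene of 4.48 to 8.93 in the compared pools), and each was counted once. Other alternatives were RLE scaling, no filter on low counts, at least 10 counts in every library, a log2 fold change of at least 1, the 6 libraries alone, the mean of negative pool and mock as reference, and leaving out each library. Counted reads per library set a limit for genes under about 1 CPM. The 18 single-end libraries of the series were not used here, and no siRNA sequence was at hand. Some members of the gene lists are not reported here by name.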

Additional observations from a re-analysis of the deposited data

How the results depend on the processing

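Counts of genes called for the Myc pool against the negative pool stayed within 1.5 times of the reported values under RLE scaling, DESeq2, both filters, the replicate block, the fit of 6 libraries and the mean of negative pool and mock as reference. With a log2 fold change of at least 1, the counts were 213 higher and 324 lower against the negative pool, 610 and 457 against the mock, 67 and 95 in all 3 direct comparisons, 224 and 57 for the negative pool against the mock, 1156 and 1782 for the M1-like against the M2-like mock, and 2 for the Myc against the combined pool. By list, that limit left 11 lipid synthesis, 12 inflammatory, 6 IL-4, 5 replication and mitosis and 1 interferon-stimulated genes, and 0 ribosome biogenesis, ribosomal protein and lysosomal genes. The 9 interferon-stimulated genes became 28 with no filter and 30 with the 6 libraries alone, and the cause was not tested. With the mean reference, which includes the mock, the number was 46, and 47 of 47 were higher in the Myc pool than in the mock. With the replicate block that list had 16 genes, Mga (0.30) and Mnt (0.22) became called, and of the 199 genes named in the text the pairing changed the call of 1 more, Angptl4; the Myc pool had 2257 higher and 2558 lower genes against the negative pool and 8 against the combined pool. The comparison with the combined pool gave 28 genes with no filter. Leaving out 1 library gave 1421 to 1793 higher and 1747 to 2009 lower genes against the negative pool, 433 to 667 and 667 to 909 in all 3 direct comparisons, 15 to 23 ribosomal protein genes, 4 to 9 interferon-stimulated genes, and 3 to 7 genes against the combined pool. Of the 168 called genes named in the text, 48 lost the call without at least 1 of the 6 libraries left out in turn, and 21 without 4 or more, namely Bub1, Rrm2 and mt-Nd1 (6 of 6), Ldha, Mrc1 and Rps24 (5 of 6), and Adgre1, Ago1, Atp6v0c, Bub1b, Cad, Cdkn2a, Dhodh, Il10, Irf9, Mcm5, Mlx, mt-Nd6, Nos2, Rpl28 and Wt1 (4 of 6). Among the 143 genes named by rule, the calls lost ranged from 10 (without the first Myc library) to 23 (without the third). With the mean reference, E2f1 turned to -0.0032 and Max to 0.16. Amd1 ranged from -0.097 to 0.089 when 1 library was left out. The mean reference mixes cells with and without siRNA.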
